A study of Mus musculus with 15 samples.

Results

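Forms of Malt1 carrying a substitution in the death domain were compared with the protease-dead form, gene by gene, in cells of E0771, an established line from a mouse mammary carcinoma. The libraries were chosen by construct alone: 3 of Malt1_V87R and 3 of Malt1_L88D, treated as 1 set of 6, the death-domain mutants, against 3 of Malt1_PD. These are 9 of the 15 libraries of the study. The 3 libraries of cells with the empty vector served as the reference for direction, and the remaining 3, of Malt1_WT, entered only the fit. The labels name no drug or stimulus, and the series title says that the cells were not cultured with T cells. All groups share the same cell line, which keeps its own Malt1 gene. PD is not spelled out in the labels. Its columns in the count table are named for the cysteine substitution C461A. The labels do not say whether replicates were separate cultures, nor whether each construct was carried by a pool or by 1 clone. The p-values below therefore rest on the spread of these libraries alone, which may be technical. Effects of a construct and chance differences between lines cannot be told apart.

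MALT1 belongs to the paracaspases and, with BCL10 and a CARD protein, forms the CBM complex that acts upstream of the transcription factor NF-kB. Its death domain takes part in binding BCL10, and its scaffold role is to recruit the ubiquitin ligase TRAF6 and, through it, the IKK kinases. As a protease it cleaves a small set of proteins, among them inhibitors of NF-kB signalling and Regnase-1 and Roquin, proteins that degrade RNA and shorten the life of cytokine mRNAs. Interferon signalling is a separate route, in which JAK kinases activate STAT proteins that, with IRF factors, switch on antiviral and antigen presentation genes. In tumour cells these routes set which signals reach immune cells, such as neutrophil-attracting chemokines on the one side and the T cell chemokine Cxcl9 or the checkpoint ligand Cd274 on the other.

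Total counts per library ran from 15471746 to 21458457. Of 55571 gene rows, 14571 had enough counts to be tested. Levels are in CPM, a gene's counts per 1000000 counts of its library after TMM scaling, ± values of levels are SD, and ± values of log2 differences are standard errors (SE). A gene is called where the edgeR quasi-likelihood test gave a Benjamini-Hochberg adjusted p under 0.05 over all tested genes. Differences between the mutants and Malt1_PD, and of each from the vector, share libraries and are given side by side only. Malt1_PD replicate 2 differed from the other 2 libraries of its group by a chi-square per gene of 10.6 and 7.28, and vector replicates 1 and 2 differed by 8.47, where the median pair of one group differed by 3.33. Malt1_L88D replicates 2 and 3 stood apart from the other mutant libraries in macrophage-type genes, whose values are given with the cytokines. The labels give no batch. Of 11 markers of mammary epithelium 8 stayed below 1 CPM in all 12 libraries, Pgr had no count, and Krt8, Epcam and Esr1 alone were tested.

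Malt1 itself (ENSMUSG00000032688.9, chromosome 18, 65430938 to 65479067, plus strand, GRCm38) was raised in all 9 libraries compared. It was at 26.4, 30.2 and 27.8 CPM with the vector, 260.0, 247 and 243 CPM in Malt1_PD, 279, 279 and 281 CPM in Malt1_V87R and 258, 245 and 251 CPM in Malt1_L88D. The 9 libraries lay within a narrow range far above the vector, at log2 differences of 3.24 for the mutants together and 3.15 for Malt1_PD. The death-domain mutants together did not pass the threshold against Malt1_PD (log2 difference 0.09 ± 0.04 SE, edgeR adjusted p = 0.054), but did under 5 of 18 other settings, limma-voom among them (adjusted p from 0.0175 to 0.0421). Malt1_V87R alone did, by 0.16 on the log2 scale (adjusted p = 0.0021), and Malt1_L88D did not (0.01, adjusted p = 0.9). The count reads the gene as a whole, so it cannot separate construct transcripts from endogenous ones or show the substitutions.

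The contrast was broad and ran both ways. Between the death-domain mutants and Malt1_PD, 6751 genes were called, 46.3% of those tested: 3293 were higher in the mutants (22.6%) and 3458 lower (23.7%). At least 2-fold differences were found for 389 of the higher and 549 of the lower genes. The 6 mutant libraries did not overlap with the 3 Malt1_PD libraries for 5754 genes (39.5% of those tested; 19.1% higher and 20.3% lower). Without Malt1_L88D replicates 2 and 3, 5741 genes were called. Malt1_V87R alone differed from Malt1_PD in 6050 genes (41.5%; 20.4% higher and 21.1% lower) and Malt1_L88D alone in 6030 (41.4%; 20% and 21.4%). Of these, 5174 genes were called in both, in the same direction. Against the vector, 2733 genes were called for the mutants together (18.8%) and 6521 for Malt1_PD (44.8%), of which 18 and 369 fell, and 209 and 775 rose, by at least 2-fold.

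Malt1_V87R and Malt1_L88D, which replace neighbouring residues, did not differ by any called gene (0 of 14571, 0%). The smallest edgeR adjusted p was 0.421, and 852 genes had an unadjusted p under 0.05. DESeq2 and limma-voom also called 0, with 591 and 893 genes at an unadjusted p under 0.05. Among 9821 genes whose mean reached 5 CPM, 95% of the log2 differences between them lay from -0.18 to 0.17, and 3 genes differed by more than 1.5-fold. These were the macrophage-type genes Lyz2 (-1.48, lower in Malt1_V87R) and Apoe (-0.86), and the microRNA gene Mir703 (0.62). For the named genes that differed most from Malt1_PD, the difference between the mutants was much smaller than that from Malt1_PD and was not called. It was 0.23 ± 0.09 SE for the T cell chemokine Cxcl9 (edgeR adjusted p = 0.74). For the macrophage chemokine Ccl3 it was 0.19 ± 0.15 (adjusted p = 0.88). Missing the threshold does not show that the mutants act alike.

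Genes induced by interferon made up most of the largest differences in favour of the mutants. Among genes of at least 5 CPM that were called for each mutant and did not overlap, the 8 largest were Cxcl9, Ccn5, Tgtp2, Apol6, Iigp1, Gbp4, Tgtp1 and Cd274. Cxcl9, a chemokine that attracts T cells (ENSMUSG00000029417.9, chromosome 5, 92321347 to 92328079, minus strand), was at 0.651, 0.184 and 0.637 CPM with the vector and 0.743, 1.66 and 1.55 CPM in Malt1_PD. In the mutants it was at 37.9, 36.8 and 34.9 CPM for Malt1_V87R and 31.2, 28.1 and 34.3 CPM for Malt1_L88D. All 6 mutant libraries lay above those of the vector and of Malt1_PD, by 4.68 ± 0.14 on the log2 scale against Malt1_PD (25.7-fold, adjusted p = 3.2e-18). Cd274, the checkpoint ligand that binds PD-1 on T cells (ENSMUSG00000016496.7, chromosome 19, 29367455 to 29388095, plus strand), was at 4.83, 5.90 and 5.64 CPM with the vector, 23.7, 21.6 and 20.4 CPM in Malt1_PD, and 179 to 207 (median 188) CPM in the 6 mutant libraries. The 3 groups were separate and in that order, and the mutants were 8.71-fold above Malt1_PD (adjusted p = 4.1e-27).

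The other large differences of this kind were in immunity-related GTPases, which act on the membranes around intracellular pathogens. Iigp1 was at 10.2, 9.10 and 9.75 CPM with the vector, 11.7, 15.02 and 14.9 CPM in Malt1_PD and 179.6 to 200.0 (median 193) CPM in the mutants (13.8-fold above Malt1_PD, adjusted p = 4.3e-26). Gbp4, a guanylate-binding protein, was at 3.88, 2.67 and 3.53 CPM in Malt1_PD and 32.3 to 37.99 (median 35.3) CPM in the mutants (10.4-fold). Tgtp1 and Tgtp2, T cell-specific GTPases, were 10.02- and 15.6-fold higher in the mutants, and neither passed the threshold in Malt1_PD against the vector. Apol6, an apolipoprotein L gene, is described with the opposite genes below. Ccn5, a secreted matricellular protein, was the exception among the 8: it was at 12.7, 14.6 and 11.7 CPM with the vector, 0.212, 0.534 and 0.482 CPM in Malt1_PD and 6.75 to 8.59 (median 7.11) CPM in the mutants. Its order was therefore vector, mutants, Malt1_PD, with no overlap, and it fell against the vector in both (log2 -0.80 and -4.97). Members of the GTPase families resemble each other closely and can share reads, so their single values are uncertain.

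**Figure D1:**
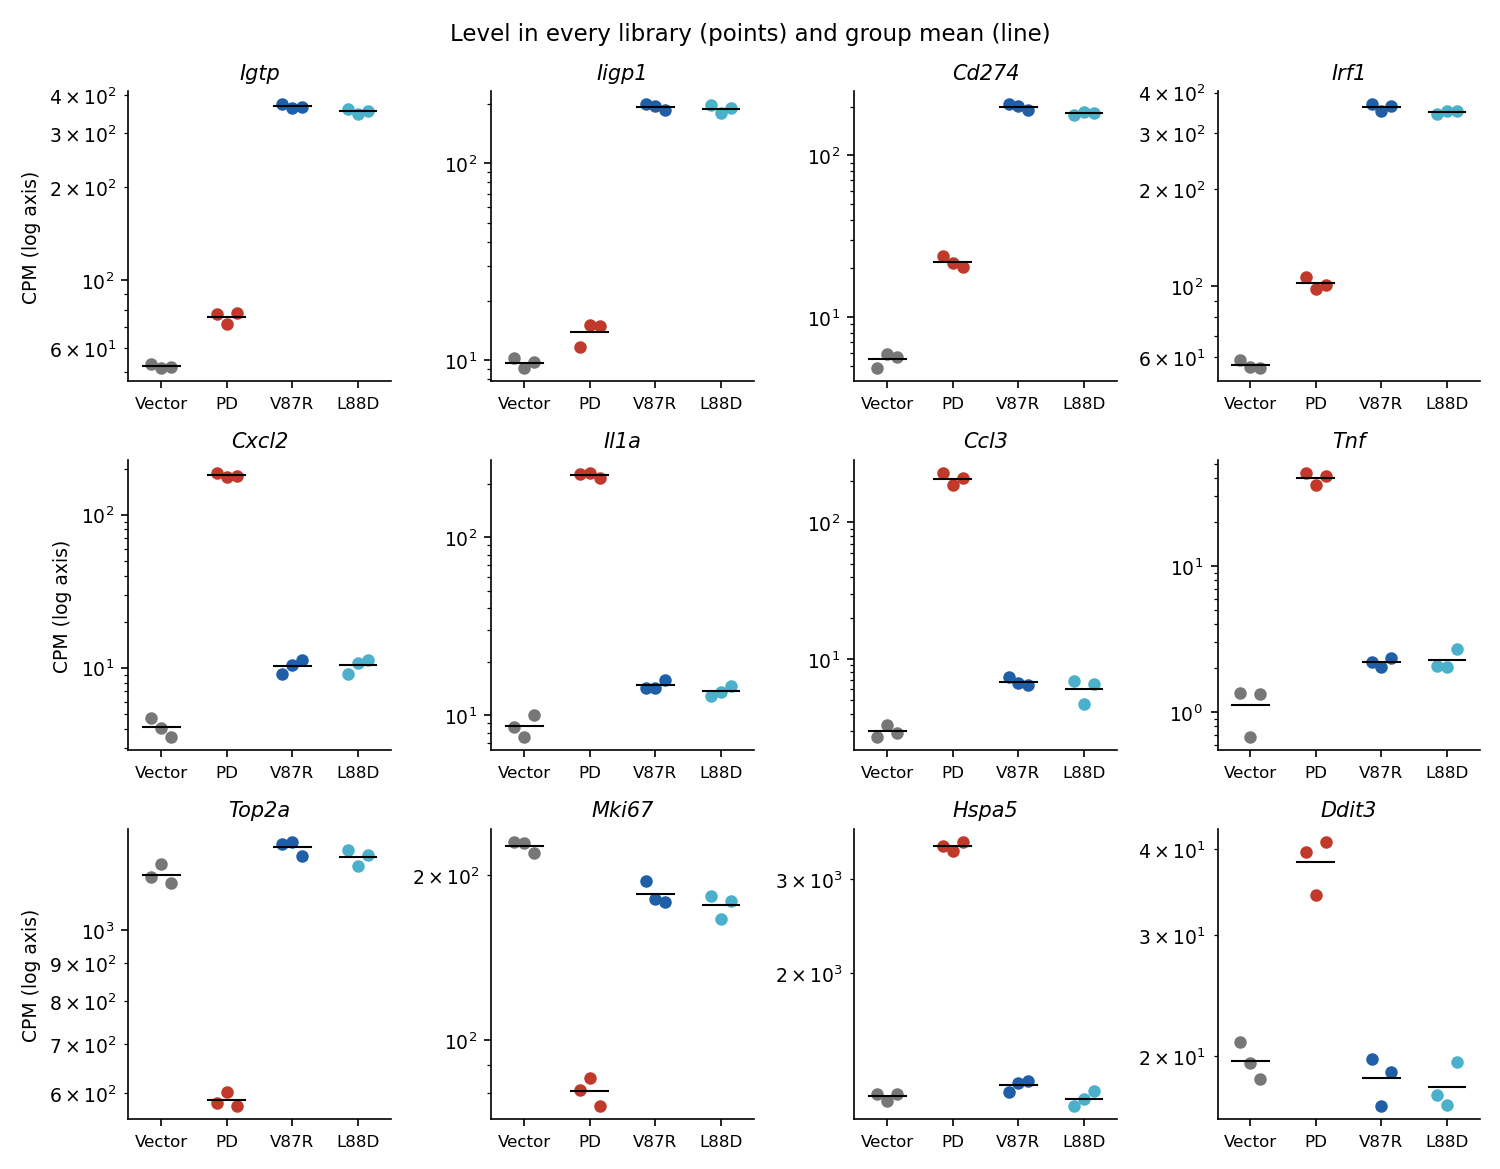
Levels of 12 genes in CPM on log axes (y) for the 3 libraries (points) of the vector, Malt1_PD, Malt1_V87R and Malt1_L88D (x), with group means as lines. In the top row Igtp, Iigp1, Cd274 and Irf1 are highest in both death-domain mutants. In the middle row Cxcl2, Il1a, Ccl3 and Tnf are highest in Malt1_PD, and in the bottom row Top2a and Mki67 are lowest and Hspa5 and Ddit3 highest in Malt1_PD.

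Interferon-inducible GTPases moved together. Of 19 tested, 17 were higher in the mutants than in Malt1_PD (89.5%, against 22.6% of all genes) and 0 were lower (against 23.7%). The median log2 difference was 1.99 (all genes tested: 0.004). Against the vector all 19 rose in the mutants (9.74% of all genes rose there), with a median of 2.78, and 15 rose in Malt1_PD (22.8% of all genes), with a median of 0.53. Igtp, also known as Irgm3, was at 53.2, 51.7 and 52.2 CPM with the vector, 77.6, 71.9 and 77.9 CPM in Malt1_PD and 346 to 373 (median 360.5) CPM in the mutants (4.75-fold above Malt1_PD, adjusted p = 1.3e-26). Irgm2 (4.24-fold) and Gbp2 (3.85-fold) followed the same order. The 2 members not called were the dynamin-like Mx1 and Mx2, which block viral nucleocapsids. Mx1 was at 15.2 ± 1.63 CPM in the mutants (n = 6) and 14.7 ± 2.07 CPM in Malt1_PD (n = 3), and Mx2 at 13.03 ± 0.646 and 12.3 ± 0.915 CPM. Both had risen against the vector in either form.

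The factors that carry interferon signals were higher for some members and lower for others. Of 18 tested, 11 were higher in the mutants (61.1%, against 22.6% of all genes), with a median of 0.17. The 4 lower ones (22.2%) were near the share over all genes (23.7%). Irf1, a transcription factor activated by type II interferon and NF-kB, was at 58.7, 56.1 and 55.6 CPM with the vector, 107, 97.9 and 101 CPM in Malt1_PD and 343 to 368 (median 352) CPM in the mutants, 3.48-fold above Malt1_PD (adjusted p = 2.2e-24). Stat2 was 2.18-fold higher, and Nlrc5, the activator of MHC class I genes, 2.96-fold higher at 166 ± 5.11 CPM. Nlrc5 did not pass the threshold in Malt1_PD against the vector (55.9 ± 2.38 and 53.4 ± 3.64 CPM). Ciita, the activator of MHC class II genes, rose against the vector in the mutants (0.454 ± 0.168 to 4.56 ± 0.486 CPM) and was at 0.380 ± 0.277 CPM in Malt1_PD. The feedback inhibitor gene Socs1 was at 31.1 ± 1.62 CPM in the mutants and 20.1 ± 3.29 CPM in Malt1_PD.

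The members lower in the mutants were the kinase genes Jak2 and Tyk2, Irf3 and the inhibitor gene Socs3. Jak2 was at 27.6, 27.1 and 27.9 CPM with the vector, 62.02, 68.7 and 61.9 CPM in Malt1_PD and 38.2 to 44.6 (median 41.4) CPM in the mutants. It had thus risen in both forms, by more in Malt1_PD. Irf7, a main driver of type I interferon genes, was at 58.2 ± 2.22 CPM in the mutants and 58.1 ± 5.66 CPM in Malt1_PD and was not called. The interferon gene Ifnb1 was too low to be tested, at a mean of 0.133 CPM in the mutants and 0.259 CPM in Malt1_PD. Ifngr2, a subunit of the type II interferon receptor, was also lower in the mutants than in Malt1_PD. It was at 38.8, 35.5 and 35.7 CPM with the vector, 95.05, 89.4 and 90.6 CPM in Malt1_PD and 33.1 to 37.4 (median 35.3) CPM in the mutants.

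Antiviral genes of the type I interferon response were higher in the mutants more often than all genes were, and not more often lower. Of 36 tested, 20 were higher than in Malt1_PD (55.6%, against 22.6% of all genes) and 7 lower (19.4%, against 23.7%), with a median of 0.19. Zbp1, a sensor of nucleic acids in Z form, was at 20.4, 17.6 and 16.9 CPM with the vector, 43.6, 37.1 and 49.7 CPM in Malt1_PD and 84.05 to 94.5 (median 90.6) CPM in the mutants (2.07-fold). The ubiquitin ligase genes Trim21 (1.72-fold) and Dtx3l (1.65-fold) were also higher. Oas1a, an oligoadenylate synthetase, was lower: 77.7, 74.7 and 73.3 CPM with the vector, 141, 123 and 141 CPM in Malt1_PD and 83.99 to 90.7 (median 88.6) CPM in the mutants. The other lower members were Oasl1, Rsad2, Isg15, Ddx58, Usp18 and Helz2, with log2 differences from -0.45 (Oasl1) to -0.24 (Usp18) and -0.24 (Helz2). Against the vector, 32 of the 36 rose in the mutants (median 0.51), where 9.74% of all genes rose. In Malt1_PD 30 rose (median 0.40), where 22.8% of all genes rose.

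Antigen presentation genes were higher in the mutants more often than all genes were, and lower about as often. Of 19 tested MHC class I genes, 11 were higher in the mutants (57.9%, against 22.6% of all genes) and 4 lower (21.1%, against 23.7%; median 0.35). The immunoproteasome subunit gene Psmb9 was at 13.5, 12.2 and 13.8 CPM with the vector, 14.3, 11.99 and 13.5 CPM in Malt1_PD and 46.6 to 51.5 (median 50.9) CPM in the mutants (3.75-fold). Psmb10 was 2.73-fold and Psmb8 1.82-fold higher. Tap1, a subunit of the peptide transporter, was at 237 ± 5.02 CPM against 104 ± 10.2 CPM in Malt1_PD, and Tap2, its partner, at 122 ± 2.03 against 64.5 ± 5.39 CPM. The class I heavy chain gene H2-K1 and the light chain gene B2m were lower in the mutants, each with a log2 difference of -0.13, and H2-D1 was not called (-0.06). H2-K1 lost its call without Malt1_L88D replicates 2 and 3 (-0.12, adjusted p = 0.071). The remaining lower members were Calr and Pdia3, chaperones of the endoplasmic reticulum that also load class I peptides.

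The promoters of Igtp and Cxcl2, a neutrophil chemokine gene described next, are shown to set a gene that was higher in the mutants beside one that was lower, with the motifs of the factors named above. They run from 250 bases before to 50 after the transcription start in the RefSeq promoter table (GRCm38.p6), and capitals mark the motif. Each is the gene of its list with the smallest adjusted p that had 1 promoter entry with a match, so both were chosen for holding one. In Igtp (chr11:58199306-58199605, plus strand) the capitals are a STAT site of the form TTC, 3 free bases and GAA, at -45 to -37 from the start, and an interferon response element of the form GAAA, 2 free bases and GAAA, at -34 to -25. In Cxcl2 (chr5:90903649-90903948, plus strand) they are 2 overlapping matches to the NF-kB motif, at -97 to -88 and -96 to -87.
Igtp: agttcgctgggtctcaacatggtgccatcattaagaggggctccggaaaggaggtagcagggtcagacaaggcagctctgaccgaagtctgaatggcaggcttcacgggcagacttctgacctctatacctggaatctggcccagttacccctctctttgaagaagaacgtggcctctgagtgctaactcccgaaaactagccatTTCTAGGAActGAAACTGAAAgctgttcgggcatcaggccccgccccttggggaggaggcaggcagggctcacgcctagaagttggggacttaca
Cxcl2: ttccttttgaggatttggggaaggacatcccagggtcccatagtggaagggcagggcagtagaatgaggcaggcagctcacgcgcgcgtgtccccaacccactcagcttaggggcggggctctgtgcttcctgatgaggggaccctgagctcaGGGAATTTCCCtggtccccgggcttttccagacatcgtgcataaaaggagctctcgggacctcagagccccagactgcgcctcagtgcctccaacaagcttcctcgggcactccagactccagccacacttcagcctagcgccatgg
Both strands were searched. The interferon response element was in the promoters of 9 of the 10 GTPase genes with an entry, and in 3.99% of the 27025 genes of the table. The STAT site was in 6 of the 10, against 9.55% of all genes. The NF-kB motif was in 20 of 36 NF-kB target genes and 8 of 21 cytokine and chemokine genes with an entry, against 9.55%. It was also in 6 of 16 MHC class I genes with an entry (37.5%), a list with 11 of 19 tested genes higher in the mutants. The motif thus does not mark lower genes alone. Per promoter, 3.44% of 32851 held the interferon element, 8.3% the STAT site and 8.46% the NF-kB motif. A match is a description of these letters and shows no binding.

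Cytokine and chemokine genes made up most of the largest differences in the other direction. The 8 largest were Ccl3, Ceacam15, Il1b, Il11, Tnf, Cxcl2, Il1a and Cxcl3, of which only the cell adhesion gene Ceacam15 is no cytokine. Ccl3, a chemokine for macrophages (ENSMUSG00000000982.5, chromosome 11, 83647844 to 83649355, minus strand), was at 2.69, 3.32 and 2.89 CPM with the vector and 229, 188 and 210.0 CPM in Malt1_PD. In the mutants it was at 7.35, 6.70 and 6.47 CPM for Malt1_V87R and 6.94, 4.67 and 6.63 CPM for Malt1_L88D. All 6 were above the vector and far below Malt1_PD, by -5.03 ± 0.07 on the log2 scale (Malt1_PD 32.7-fold higher, adjusted p = 1.0e-20). Cxcl2, a neutrophil chemokine whose promoter is given above, was at 4.69, 4.06 and 3.53 CPM with the vector, 186, 176 and 178 CPM in Malt1_PD and 9.09 to 11.3 (median 10.5) CPM in the mutants (-4.12 ± 0.05, adjusted p = 1.1e-29). It rose in the mutants against the vector, by 1.33 on the log2 scale, and in Malt1_PD by 5.45.

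Some of these genes rose in Malt1_PD and not detectably in the mutants. Il1b, interleukin 1 beta, was at 0.186, 0.184 and 0.245 CPM with the vector, 6.27, 6.29 and 6.32 CPM in Malt1_PD and 0.191 to 0.279 (median 0.244) CPM in the mutants, which did not pass the threshold against the vector (adjusted p = 0.84). Il11, a cytokine of the interleukin 6 family, was at 31.5, 29.97 and 37.6 CPM in Malt1_PD and 0.884 to 1.84 (median 1.68) CPM in the mutants (against the vector, adjusted p = 0.36). Ceacam15 was at 18.4, 19.9 and 17.4 CPM and 0.460 to 0.884 (median 0.733) CPM (adjusted p = 0.14). Others rose in both: Il1a was at 8.64, 7.56 and 9.998 CPM with the vector, 228, 229 and 216 CPM in Malt1_PD and 12.8 to 15.7 (median 14.2) CPM in the mutants. Tnf, tumour necrosis factor, was at 1.35, 0.676 and 1.32, at 43.3, 36.2 and 41.3 and at 2.05 to 2.72 (median 2.14) CPM in the same order, and the neutrophil chemokine Cxcl3 at 3.11, 1.91 and 2.35, at 74.7, 73.4 and 67.5 and at 3.33 to 5.49 (median 4.84) CPM.

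Over the whole list, 25 of 34 tested cytokine and chemokine genes were lower in the mutants than in Malt1_PD (73.5%, against 23.7% of all genes). Higher were 5 (14.7%, against 22.6%), and the median was -1.71. Il12b, a lower member, lost its call without Malt1_PD replicate 3 (-0.86, adjusted p = 0.15). Besides those above, the colony-stimulating factor genes were lower in the mutants, with Malt1_PD above them 3.66-fold for Csf1, 5.90-fold for Csf2 and 11.5-fold for Csf3. Cxcl1, another neutrophil chemokine, was at 1626, 1465 and 1480 CPM in Malt1_PD and 268 to 309 (median 289) CPM in the mutants. Il6 was at 17.7, 17.1 and 16.6 CPM with the vector, 128, 118 and 118 CPM in Malt1_PD and 33.9 to 42.95 (median 37.4) CPM in the mutants. The 5 members that were higher in the mutants were Cxcl9, Cxcl10, Cxcl11, Ccl8 and Ccl11. Cxcl11 lost its call without Malt1_PD replicate 2 (0.75, adjusted p = 0.14), Malt1_PD replicate 3 (adjusted p = 0.055) or Malt1_L88D replicate 2 (0.053). Cxcl9, Cxcl10 and Cxcl11 bind CXCR3, a receptor of activated T cells. Cxcl10 was at 19.8, 18.9 and 18.9 CPM with the vector, 43.4, 38.3 and 45.1 CPM in Malt1_PD and 118 to 135 (median 129) CPM in the mutants, and Cxcl11 at 0.341 ± 0.208 and 0.766 ± 0.178 CPM. The monocyte chemokine Ccl8 was at 1.93 ± 0.327 and 6.75 ± 1.08 CPM. Ccl11, an eosinophil chemokine, had fallen in Malt1_PD against the vector, to 0.235 ± 0.166 from 1.99 ± 0.212 CPM, and was at 1.41 ± 0.333 CPM in the mutants.

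Markers of other cell types moved with part of these groups. The sum of 17 macrophage and dendritic cell markers was 76.6 to 81.1 CPM in Malt1_PD, 38.3 to 39.3 with the vector, 31.9 to 38.8 in Malt1_V87R and 39.0 to 68.6 in Malt1_L88D, and 10 of the 17 stayed below 1 CPM in all 12 libraries. Lyz2, lysozyme of myeloid cells, was at 15.7, 14.4 and 12.9 CPM in Malt1_PD, 5.72, 5.59 and 5.68 with the vector, 3.27, 5.54 and 6.22 in Malt1_V87R and 5.49, 19.6 and 16.2 in Malt1_L88D. Malt1_L88D replicates 2 and 3 thus reached or passed the level of Malt1_PD, and the lipoprotein gene Apoe did likewise (7.07, 15.3 and 11.9 CPM, against 11.5, 10.7 and 12.4 CPM). Cd14, a co-receptor for bacterial lipopolysaccharide, did not: it was at 8.14, 8.57 and 8.40 CPM in Malt1_L88D and 22.6, 22.7 and 23.4 CPM in Malt1_PD. In the same 2 libraries Ccl3 was at 4.67 and 6.63 CPM, Il1b at 0.191 and 0.237 CPM and Tnf at 2.05 and 2.72 CPM. None of them approached the levels of Malt1_PD.

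**Figure D2:**
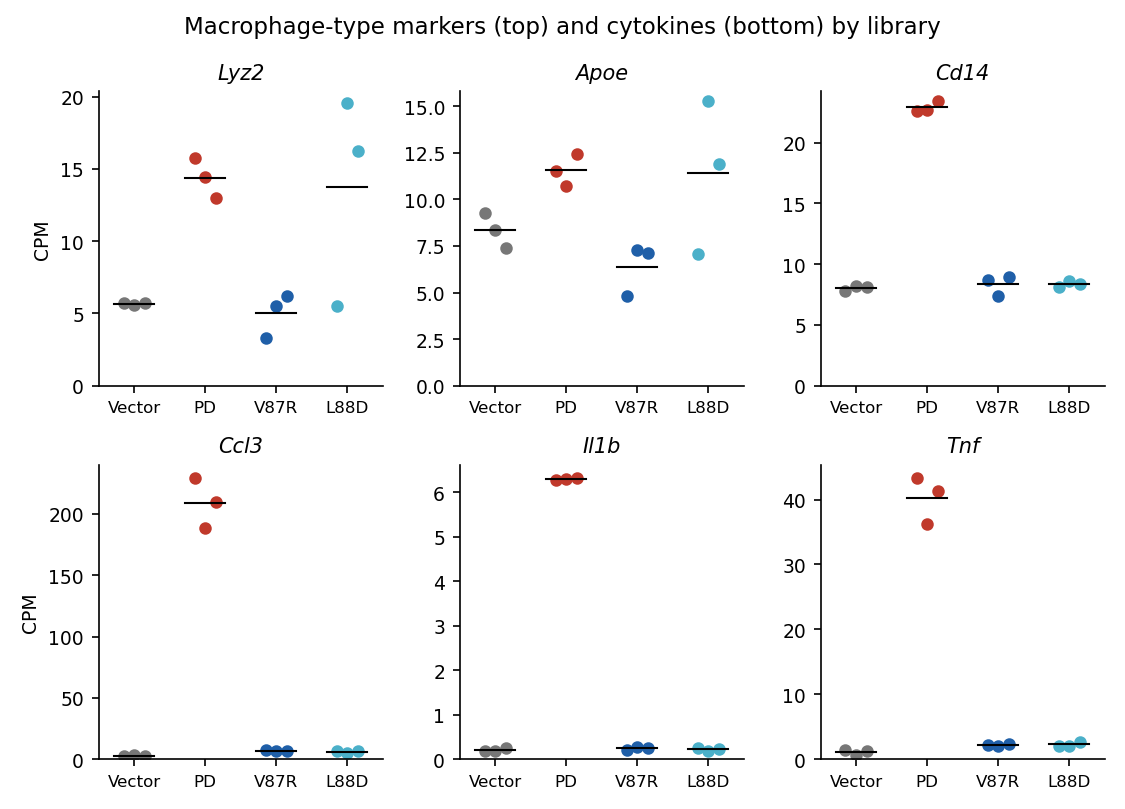
Levels in CPM (y, from 0) of the macrophage-type genes Lyz2, Apoe and Cd14 (top) and the cytokine genes Ccl3, Il1b and Tnf (bottom) in the 3 libraries (points) of each group (x), with group means as lines. Malt1_L88D replicates 2 and 3 are high for Lyz2 and Apoe and lie far below Malt1_PD for Cd14 and the cytokines. For Ccl3, replicate 2 (4.67 CPM) is below the other mutant libraries.

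Without those 2 libraries 5741 genes were called between the mutants and Malt1_PD, and the list members called were 223 higher and 303 lower, where all libraries gave 240 and 311. A gene on 2 lists counts under each. All 9 tested macrophage and dendritic cell markers were then lower in the mutants, where all libraries gave 5. Markers of fibroblasts summed to 342 to 358 CPM in Malt1_PD and 293 to 317 CPM in the mutants, and those of endothelium to 118 to 129 and 131 to 139 CPM. The endothelial sum was higher in the mutants, but most single members were not. Of 5 tested, 3 were lower (60%, against 23.7% of all genes) and 1 higher (20%, against 22.6%), with a median of -0.46. Of 10 T and NK cell markers only 1 was tested, and Cd8a, Nkg7, Klrb1c and Ncr1 had no count in the 12 libraries. In a sample of many cells, fewer cells of a type and less RNA per cell cannot be told apart, and the part of these markers in the other differences was not tested.

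The NF-kB genes as a list were lower in the mutants. Of 48 NF-kB target genes, 39 were lower (81.2%, against 23.7% of all genes) and 4 higher (8.33%, against 22.6%), with a median of -1.34. Against the vector, 36 rose in the mutants (median 0.48), where 9.74% of all genes rose. In Malt1_PD 45 rose (median 1.66), where 22.8% of all genes rose. Many of them are also on the cytokine list. The higher members were Irf1 and Cxcl10, described above, Bcl3, an atypical IkB protein, and the survival gene Bcl2l1. Bcl2l1 lost its call in 14 of 18 other settings, DESeq2 (adjusted p = 0.084) and each setting without 1 mutant or Malt1_PD library among them. Nos2, the inducible nitric oxide synthase, was high in both forms: 304, 316 and 347 CPM with the vector, 1006, 981 and 1025 CPM in Malt1_PD, 764, 757 and 783 CPM in Malt1_V87R and 842, 864 and 903 CPM in Malt1_L88D (log2 -0.30 ± 0.03 against Malt1_PD, adjusted p = 3.3e-08).

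Among NF-kB subunits and inhibitors, 8 of 10 tested were lower in the mutants (80%, against 23.7% of all genes) and 1 was higher (10%, against 22.6%). Nfkbia, which encodes the inhibitor IkB alpha and is itself a target, was at 235, 234 and 242 CPM with the vector, 711, 653 and 691 CPM in Malt1_PD and 220.0 to 248 (median 241) CPM in the mutants. The mutant libraries spanned the vector values (log2 0.00 ± 0.03 against the vector, adjusted p = 0.98). The precursor genes Nfkb1 and Nfkb2 were 2.57- and 2.58-fold higher in Malt1_PD than in the mutants, and Relb, a subunit of the alternative pathway, 2.48-fold. Rela, the main activating subunit, was at 131 ± 3.88 CPM in the mutants, 198 ± 2.86 CPM in Malt1_PD and 142 ± 5.71 CPM with the vector, and was called in opposite directions against the vector. Bcl3 was the higher member (60.8 ± 4.09 against 45.1 ± 4.22 CPM), and Nfkbiz was not called (189 ± 5.85 against 188 ± 14.04 CPM).

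**Figure D3:**
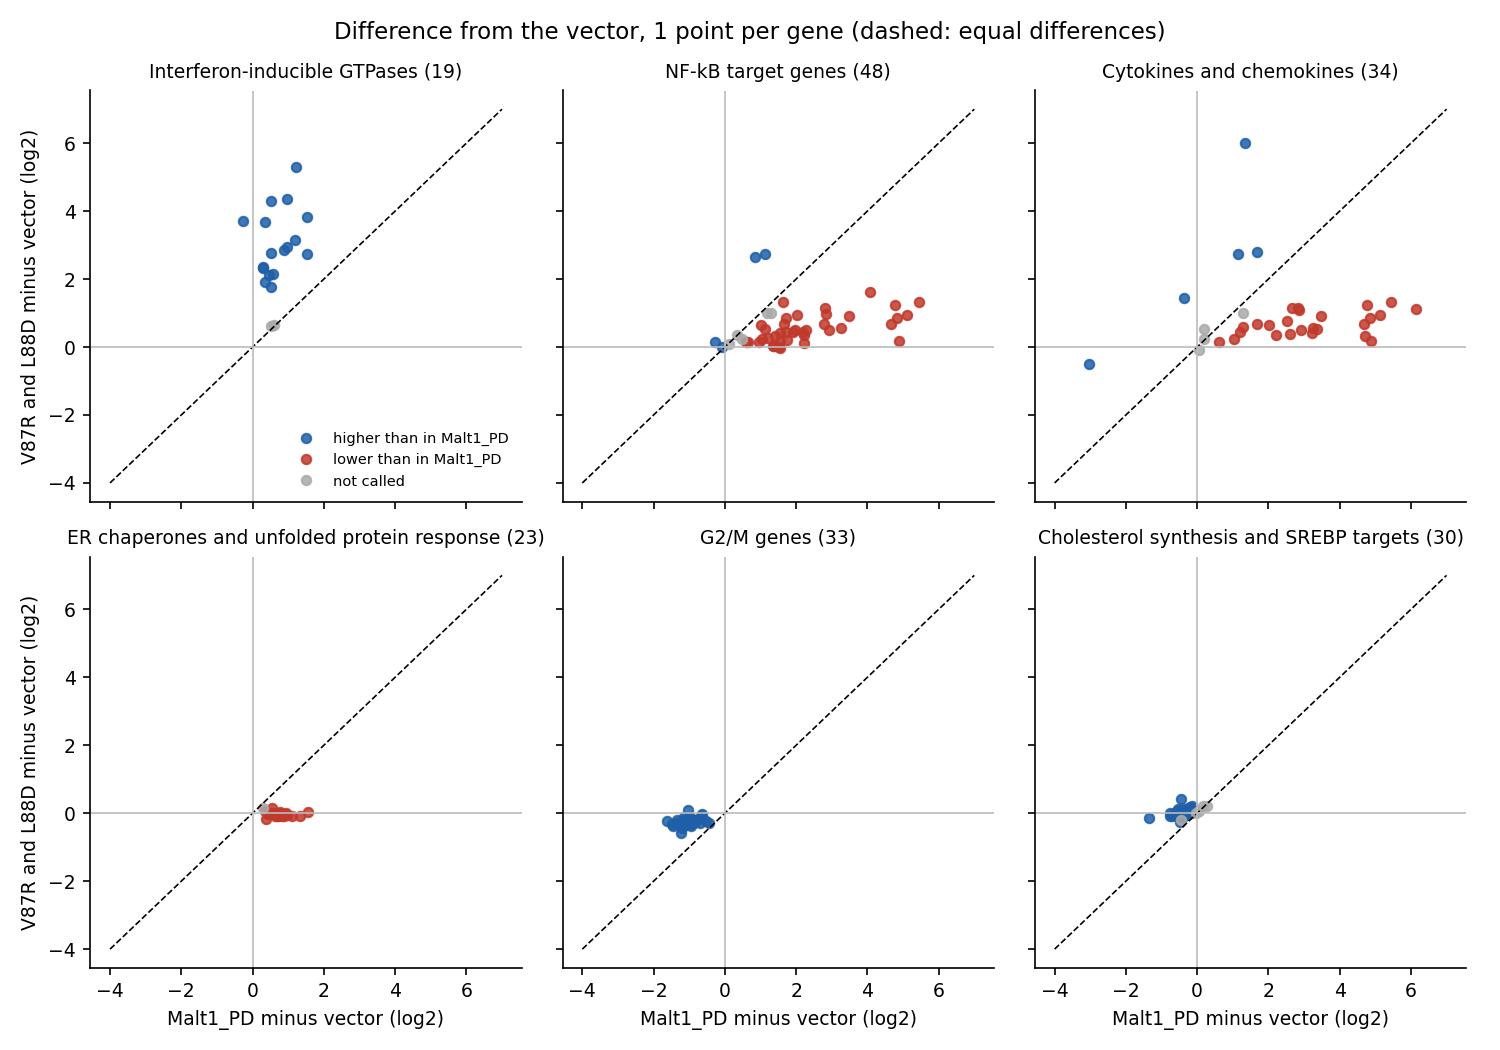
Log2 differences from the vector for Malt1_PD (x) and for Malt1_V87R and Malt1_L88D together (y), 1 point per tested gene, in 6 gene lists, with the number tested in brackets. Colours give the call between the mutants and Malt1_PD, and the dashed line marks equal differences. All 19 GTPase genes lie above the line, most NF-kB targets and cytokines lie below it, ER chaperone genes spread along x near 0 on y, and G2/M genes lie to the left of 0.

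Most genes of the pathway around Malt1 were not called at the mRNA level. Of 16 tested genes of the CBM complex and IKK activation, 10 were not called, where 46.3% of all genes were called. Lower in the mutants were 5 (31.2%, against 23.7% of all genes). The IKK scaffold gene Ikbkg was the 1 higher member (6.25%, against 22.6%), though not without Malt1_PD replicate 1 (adjusted p = 0.051). Bcl10, the partner of MALT1, was at 83.1 ± 3.21 CPM with the vector, 121 ± 0.193 CPM in Malt1_PD and 85.8 ± 1.72 CPM in the mutants (-0.50 ± 0.04, adjusted p = 1.6e-11). Card10, the CARD protein gene of epithelial cells, was at 30.6 ± 0.737 and 17.6 ± 1.33 CPM in Malt1_PD and the mutants. The kinase gene Ikbkb (-0.36) and the ligase genes Traf6 (-0.36) and Traf3 (-0.22) were the other lower members.

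Genes that encode substrates of the MALT1 protease were lower in the mutants in 7 of 14 cases (50%, against 23.7% of all genes). Higher were 2 (14.3%, against 22.6%), and the median was -0.21. Tnfaip3, which encodes the NF-kB inhibitor A20, was at 29, 28.8 and 28.7 CPM with the vector, 134, 135 and 128 CPM in Malt1_PD and 35.03 to 44.2 (median 38.7) CPM in the mutants. Zc3h12a, which encodes Regnase-1, was 1.75-fold higher in Malt1_PD than in the mutants. Cyld, a deubiquitinase gene, and Rbck1, of the linear ubiquitin ligase, were higher in the mutants by 0.21 and 0.34 on the log2 scale. Cyld lost its call without Malt1_L88D replicates 2 and 3 (adjusted p = 0.062), and when 1 library was left out, without Malt1_PD replicate 1 (0.17), Malt1_PD replicate 3 (0.13), Malt1_V87R replicate 2 (0.05) or Malt1_L88D replicate 3 (0.051). These are mRNA levels and do not read cleavage. Of 17 tested mRNAs known as targets of Regnase-1 or Roquin, 14 were lower (82.4%, against 23.7% of all genes). Higher was 1, Tfrc, the transferrin receptor (5.88%, against 22.6%). Tfrc lost its call without Malt1_PD replicate 1 (adjusted p = 0.077) or 3 (0.051). Most of them, such as Cxcl2, Tnf and Il6, are also on the lists above.

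AP-1 and immediate-early genes were lower in the mutants in 23 of 26 cases (88.5%, against 23.7% of all genes). Higher was 1 (3.85%, against 22.6%), and the median was -0.57. Junb, an AP-1 subunit gene, was at 179 ± 5.72 CPM with the vector, 373 ± 18.7 CPM in Malt1_PD and 186 ± 6.59 CPM in the mutants. Fos was at 3.88 ± 0.389, at 14.6 ± 1.34 and at 3.97 ± 0.592 CPM in the same groups. Phlda1 and Ier3, early response genes, were 2.75- and 2.45-fold higher in Malt1_PD than in the mutants, and the phosphatase gene Dusp5 2.13-fold. The exception was Etv5, a transcription factor gene downstream of ERK, at 36.5 ± 0.490 CPM in Malt1_PD, 53.7 ± 2.24 CPM in the mutants and 58.1 ± 2.47 CPM with the vector.

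Genes of cell division were higher in the mutants without exception among those tested for G2 and mitosis. All 33 tested G2/M genes were called higher (100%, against 22.6% of all genes), with a median of 0.78. So were 40 of 41 S-phase genes (97.6%), with a median of 0.57. None was lower on either list (against 23.7% of all genes). Against the vector all 33 G2/M genes fell in Malt1_PD (22% of all genes fell there), with a median of -1.09. In the mutants 28 fell (9.02% of all genes) and 1, Top2a, rose, with a median of -0.28. Mki67, the antigen of the Ki-67 stain, was at 229.5, 229 and 219 CPM with the vector, 81.2, 85.3 and 75.8 CPM in Malt1_PD and 166 to 195 (median 180.1) CPM in the mutants, with the 3 groups separate. Ccna2, a cyclin of S phase and G2, was 2.24-fold and Cenpe, a kinetochore motor gene, 1.97-fold higher in the mutants than in Malt1_PD. Rrm2, the ribonucleotide reductase subunit of S phase, was at 401, 399 and 385 CPM with the vector, 208, 195 and 203 CPM in Malt1_PD and 354 to 388 (median 374) CPM in the mutants, where it overlapped with the vector. Of S-phase genes 41 fell in Malt1_PD and 14 in the mutants against the vector.

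Top2a, which encodes the topoisomerase that untangles chromosomes, had the smallest adjusted p of the G2/M list. It was at 1179, 1229 and 1156 CPM with the vector, 582, 602 and 576 CPM in Malt1_PD and 1221 to 1315 (median 1274) CPM in the mutants (2.17-fold above Malt1_PD, adjusted p = 5.0e-22). Its promoter (chr11:99024140-99024439, minus strand) is shown with the promoter of Hspa5 (chr2:34771840-34772139, plus strand), the gene with the smallest adjusted p among the ER chaperones described next. In Top2a the capitals are the letters TTTGAA on either strand, the cell cycle homology region (CHR) of G2/M promoters, at -179 to -174 and -23 to -18. In Hspa5 they are an ER stress element of the form CCAAT, 9 free bases and CCACG, at -65 to -47. Both genes were again the first of their list with 1 entry that held a match.
Top2a: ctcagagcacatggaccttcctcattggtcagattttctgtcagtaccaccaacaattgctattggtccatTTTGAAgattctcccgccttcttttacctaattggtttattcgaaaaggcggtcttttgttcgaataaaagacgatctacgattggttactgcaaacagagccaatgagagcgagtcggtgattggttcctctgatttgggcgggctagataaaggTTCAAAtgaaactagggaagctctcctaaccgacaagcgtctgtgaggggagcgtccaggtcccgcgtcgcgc
Hspa5: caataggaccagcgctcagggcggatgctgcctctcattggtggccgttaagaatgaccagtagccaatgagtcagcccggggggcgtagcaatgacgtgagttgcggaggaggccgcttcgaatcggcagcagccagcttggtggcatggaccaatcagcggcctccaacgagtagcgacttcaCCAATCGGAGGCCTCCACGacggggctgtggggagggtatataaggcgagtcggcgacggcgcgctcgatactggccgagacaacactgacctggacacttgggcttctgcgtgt
The CHR letters were in 19 of 28 G2/M genes with an entry, against 20.2% of all genes (17.9% of promoters). The ER stress element was in 8 of 19 ER chaperone and unfolded protein response genes with an entry, against 0.137% of all genes (0.119% of promoters).

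Of 20 tested p53 target genes, 10 were lower in the mutants (50%, against 23.7% of all genes), 4 higher (20%, against 22.6%) and 6 not called (median -0.20). Gadd45a, a higher member, lost its call with DESeq2 (adjusted p = 0.052) and other settings. Bax, a lower member, did so without Malt1_PD replicate 1 (0.14) or 3 (0.12), among others. Cdkn1a, the cyclin-dependent kinase inhibitor p21, was at 285, 277 and 288 CPM with the vector, 875, 803 and 852 CPM in Malt1_PD and 323 to 362 (median 332) CPM in the mutants (-1.31 ± 0.03, adjusted p = 1.4e-22). It rose in both forms against the vector. Plk2, a stress-responsive kinase gene, was at 66.3, 64.7 and 72.05 CPM with the vector, 178, 191 and 169 CPM in Malt1_PD and 52.7 to 62.1 (median 55.2) CPM in the mutants, and was called in opposite directions against the vector. Sesn2 and Ddit4, inhibitors of mTORC1 signalling on this and on the ATF4 list, were 2.74- and 2.37-fold higher in Malt1_PD. Sesn1 was higher in the mutants (20.98 ± 1.31 against 12.6 ± 0.826 CPM) and had fallen against the vector (27.03 ± 1.23 CPM) in both.

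Genes that respond to protein folding stress in the endoplasmic reticulum were high in Malt1_PD and near the vector level in the mutants. Of 23 tested, 22 were lower in the mutants (95.7%, against 23.7% of all genes) and 0 higher (against 22.6%), with a median of -0.74. Against the vector 22 rose in Malt1_PD (median 0.70), where 22.8% of all genes rose. In the mutants 1 (Edem1) rose and 1 (Sec61b) fell (median -0.01), where 9.74% of all genes rose and 9.02% fell. Hspa5, the main chaperone, was at 1187, 1154 and 1190 CPM with the vector, 3461, 3390 and 3519 CPM in Malt1_PD and 1129 to 1260 (median 1201) CPM in the mutants. The mutant libraries spanned those of the vector (log2 0.03 ± 0.03, adjusted p = 0.6), and lay -1.53 ± 0.03 from Malt1_PD (adjusted p = 1.9e-25). Creld2, Manf and Hyou1, other genes of the unfolded protein response, were 2.63-, 2.25- and 2.05-fold higher in Malt1_PD than in the mutants. Hspa13 alone was not called (86.6 ± 5.88 against 96.7 ± 15.96 CPM).

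Genes of the integrated stress response, which the factor ATF4 drives, were lower in the mutants. Of 29 tested, 28 were lower (96.6%, against 23.7% of all genes) and 0 higher (against 22.6%), with a median of -0.72. Against the vector 28 rose in Malt1_PD, where 22.8% of all genes rose. In the mutants 15 rose and 2 fell (median 0.12), where 9.74% of all genes rose and 9.02% fell. Ddit3, which encodes the stress factor CHOP, was at 21, 19.5 and 18.5 CPM with the vector, 39.7, 34.3 and 40.99 CPM in Malt1_PD and 16.9 to 19.9 (median 18.3) CPM in the mutants. Sesn2 was at 43.2, 43.1 and 44.9, at 136, 133 and 134 and at 46.95 to 50.2 (median 49.2) CPM. Mthfd2, a mitochondrial folate enzyme, and Slc7a1, an arginine transporter, were 2.12- and 1.90-fold higher in Malt1_PD. Phgdh, the first enzyme of serine synthesis, was the member not called (-0.07 ± 0.04, adjusted p = 0.12).

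Cholesterol and fatty acid synthesis genes were higher in the mutants in 25 of 30 cases (83.3%, against 22.6% of all genes). None was lower (against 23.7%), and the median was 0.38. In Malt1_PD 24 of the 30 fell against the vector and 2 rose, where 22% of all genes fell and 22.8% rose. In the mutants 3 of the 30 fell and 5 rose (median 0.02), where 9.02% of all genes fell and 9.74% rose. Elovl6, a fatty acid elongase gene, was at 132, 134 and 127 CPM with the vector, 48.2, 53.2 and 52.98 CPM in Malt1_PD and 108 to 128 (median 117) CPM in the mutants (2.28-fold above Malt1_PD). The desaturase genes Scd1 (1.71-fold) and Scd2 (1.61-fold) were also higher.

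**Figure D4:**
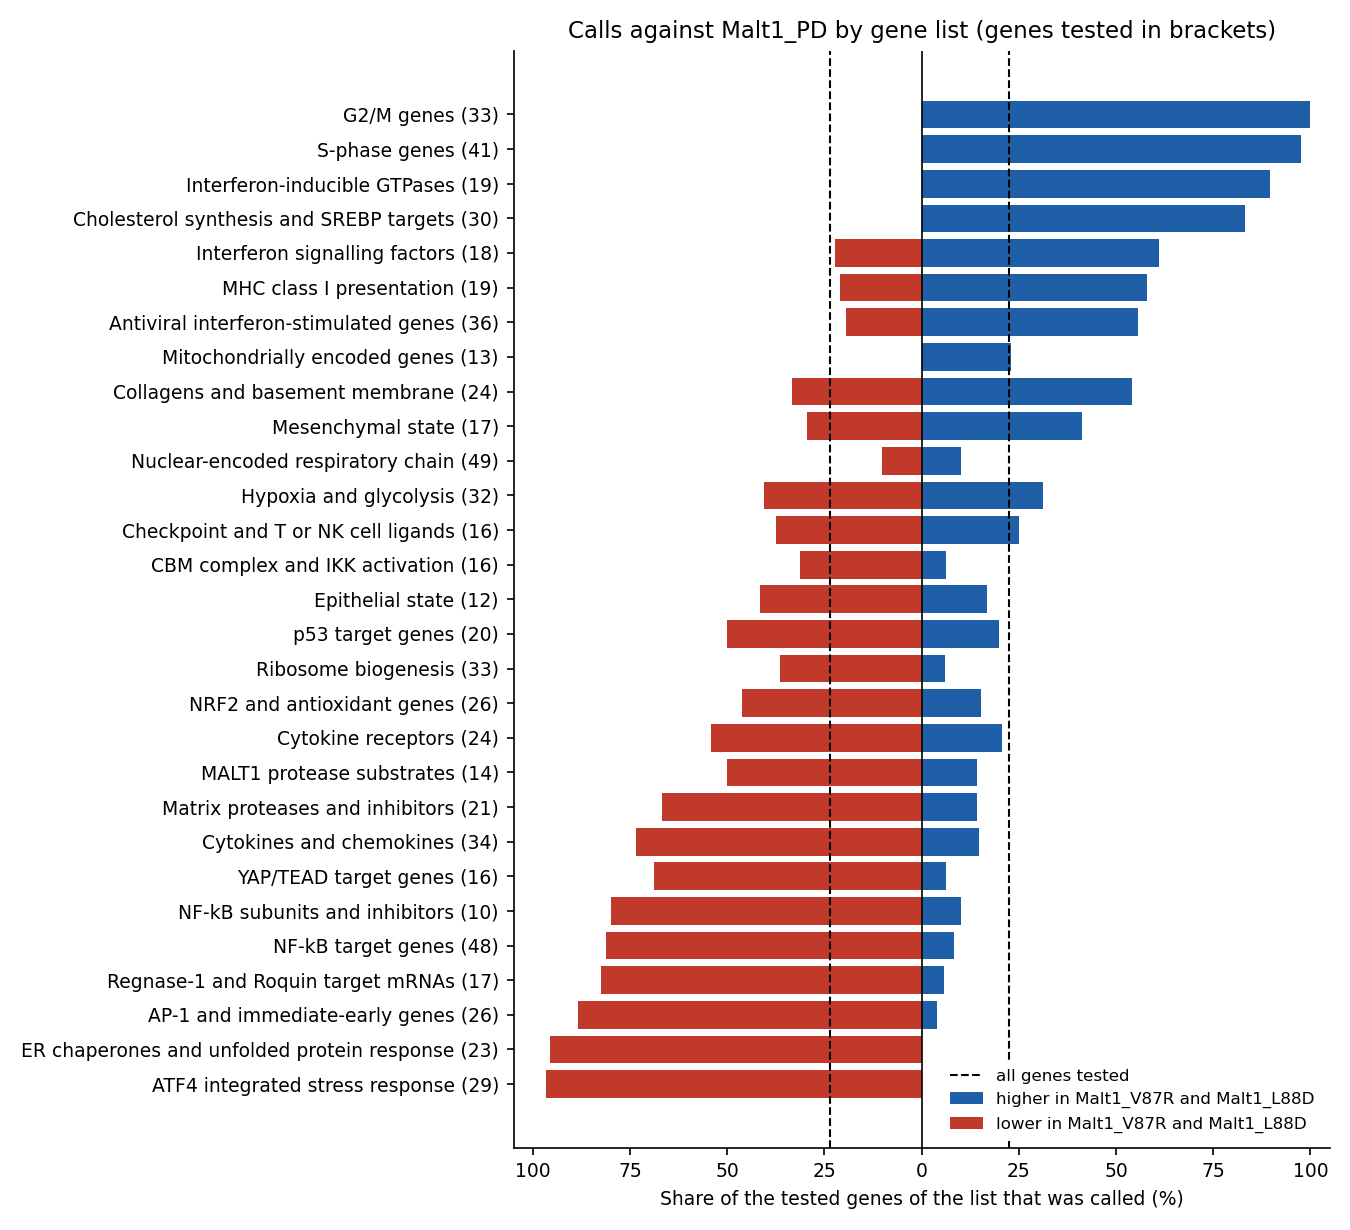
Share of the tested genes of each list (y, number tested in brackets) that was called higher (right, blue) or lower (left, red) in Malt1_V87R and Malt1_L88D than in Malt1_PD (x, percent). Dashed lines mark the shares over all genes tested, 22.6% higher and 23.7% lower. All G2/M genes were higher, and the ATF4 and ER chaperone lists had no higher member.

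Genes that build and cut the extracellular matrix differed as well. Of 21 matrix proteases and inhibitors, 14 were lower in the mutants (66.7%, against 23.7% of all genes). Higher were 3 (14.3%, against 22.6%), and the median was -0.55. Mmp10, stromelysin 2, was at 2.74, 2.27 and 2.06 CPM with the vector, 48.96, 53.2 and 44.6 CPM in Malt1_PD and 3.09 to 4.79 (median 4.24) CPM in the mutants (-3.55 ± 0.08, adjusted p = 7.5e-24). Plau, the urokinase gene, and Mmp9, a gelatinase gene, were 5.20- and 4.22-fold higher in Malt1_PD than in the mutants. Mmp14, a membrane-anchored protease, rose in Malt1_PD and fell in the mutants against the vector (393 ± 12.9, 195 ± 8.51 and 209.7 ± 3.94 CPM).

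Collagen and basement membrane genes were split, with 13 of 24 higher in the mutants (54.2%, against 22.6% of all genes) and 8 lower (33.3%, against 23.7%). Col8a1, a short-chain collagen, was at 42.99, 50.3 and 41.9 CPM with the vector, 6.16, 7.42 and 5.46 CPM in Malt1_PD and 40 to 50.4 (median 44.5) CPM in the mutants, which spanned the vector. Sparc, a collagen-binding protein, was 1.97-fold and Col6a3 1.62-fold higher in the mutants. Col6a1 and Col6a2, the other chains of collagen VI, differed in the other direction (-0.56 and -0.47). Both fell against the vector in the mutants and were not called in Malt1_PD. Col18a1 and Lamc1, of basement membranes, were 1.96- and 1.54-fold higher in Malt1_PD.

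Receptor and ligand genes of the cell surface were lower in the mutants more often than all genes were, and higher about as often. Of 24 tested cytokine receptors, 5 were higher in the mutants (20.8%, against 22.6% of all genes) and 13 lower (54.2%, against 23.7%), with a median of -0.30. Of 16 ligands of checkpoints and of T or NK cells 4 were higher (25%, near the 22.6% of all genes) and 6 lower (37.5%, against 23.7%). Vtcn1, a higher member, lost its call with DESeq2 (adjusted p = 0.084), limma-voom (0.055) and other settings, such as without Malt1_PD replicate 1 (0.21). Tnfrsf1b, a receptor of tumour necrosis factor, was 2.08-fold higher in Malt1_PD than in the mutants. Il6ra, the interleukin 6 receptor, was at 92.9 ± 2.98 CPM in the mutants, 48.5 ± 2.17 CPM in Malt1_PD and 104 ± 5.005 CPM with the vector. Pvr, a ligand of the T and NK cell receptors DNAM-1 and TIGIT, went opposite to Cd274: it was at 132, 154 and 151 CPM with the vector, 462, 472 and 453 CPM in Malt1_PD and 160.0 to 178 (median 166) CPM in the mutants. Cd47, the ligand that restrains phagocytosis, was 1.30-fold higher in Malt1_PD than in the mutants, and Hmgb1, a nuclear protein released by dying cells, 1.39-fold higher in the mutants.

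Lists of other functions are given by their counts, to be read against 22.6% higher and 23.7% lower over all genes. Of 16 YAP/TEAD target genes 11 were lower in the mutants and 1, the receptor tyrosine kinase gene Axl, was higher. F3, tissue factor, was 1.69-fold and Ccn1, a matricellular protein, 1.91-fold higher in Malt1_PD. Hypoxia and glycolysis genes were 10 of 32 higher and 13 lower, and NRF2 and antioxidant genes 4 of 26 higher and 12 lower. Ribosome biogenesis genes were 2 of 33 higher and 12 lower. Of 49 nuclear-encoded respiratory chain genes 5 were higher and 5 lower, and of 13 mitochondrially encoded genes 3 were higher and 0 lower. Genes of the epithelial state were 2 of 12 higher and 5 lower, and those of the mesenchymal state 7 of 17 higher and 5 lower, with Epcam and Vim both among the higher ones.

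Genes called in opposite directions against the vector were few. They numbered 236, 1.62% of those tested: 122 rose in the mutants and fell in Malt1_PD (0.837%), and 114 fell in the mutants and rose in Malt1_PD (0.782%). All 236 were also called between the mutants and Malt1_PD. Choosing genes by opposite differences from the same vector libraries made this nearly certain, so it adds no support. With each mutant required to pass on its own against the vector the numbers were 67 and 44 (of all genes 7.01% rose and 4.7% fell in Malt1_V87R, and 8.96% rose and 8.43% fell in Malt1_L88D), and both differences exceeded 1.5-fold for 8 and 1 genes. The counts depended on single vector libraries, being 70 and 49 without vector replicate 3, and 63 for the second direction without vector replicate 1. Without Malt1_L88D replicates 2 and 3 they were 75 and 73.

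Among the genes that rose in the mutants and fell in Malt1_PD, those named by the largest smaller difference, among 108 named genes of at least 5 CPM, were Apol6, C4b, Ehf, Fam13a, Angpt1 and Styk1. Apol6 (ENSMUSG00000033576.12, chromosome 15, 77044729 to 77057106, plus strand) was at 3.95, 2.58 and 2.94 CPM with the vector, 0.956, 0.950 and 0.803 CPM in Malt1_PD, 15.9, 11.96 and 12.5 CPM in Malt1_V87R and 10.8, 13.6 and 12.5 CPM in Malt1_L88D. The 3 groups were separate, at 2.01 ± 0.14 for the mutants and -1.82 ± 0.25 for Malt1_PD on the log2 scale. C4b, complement component 4, was at 9.02, 9.10 and 7.79 CPM with the vector, 3.13, 3.92 and 3.75 CPM in Malt1_PD and 22.5 to 28.2 (median 24.5) CPM in the mutants (1.52 ± 0.08 and -1.26 ± 0.12). Angpt1, the vessel-stabilising ligand of the receptor Tek, was at 19.6, 23.1 and 20.3, at 7.70, 8.43 and 7.81 and at 27.9 to 33.8 (median 31.6) CPM in these groups. Ehf, an epithelial ETS factor, was at 4.09, 4.61 and 3.68, at 1.59, 2.02 and 2.30 and at 5.72 to 7.39 (median 6.74) CPM. Fam13a was 2.74-fold and the kinase-like gene Styk1 2.26-fold higher in the mutants than in Malt1_PD.

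In the other direction, by the same rule among 113 genes, the 6 were Agt, Prdm11, Rab15, Dusp1, Vgf and Radil. Agt, angiotensinogen (ENSMUSG00000031980.9, chromosome 8, 124556534 to 124569706, minus strand), was at 3.72, 2.89 and 3.77 CPM with the vector, 7.54, 6.77 and 6.69 CPM in Malt1_PD and 1.39 to 1.95 (median 1.74) CPM in the mutants (-1.05 ± 0.16 for the mutants and 1.00 ± 0.15 for Malt1_PD). Dusp1, a phosphatase that shuts off MAP kinases and an immediate-early gene, was at 41.03, 43.4 and 45.4, at 102, 95.9 and 96.98 and at 26.9 to 35.6 (median 30.01) CPM in these groups. Rab15, a small GTPase of endosomal transport, was at 6.60, 5.90 and 6.37, at 18.4, 15.8 and 17.7 and at 3.66 to 5.68 (median 4.38) CPM. Each of these had separate groups. Prdm11 and Vgf, a neuropeptide precursor gene, were 2.83- and 2.75-fold higher in Malt1_PD than in the mutants. Radil, an effector of the GTPase Rap, was 1.90-fold higher.

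**Figure D5:**
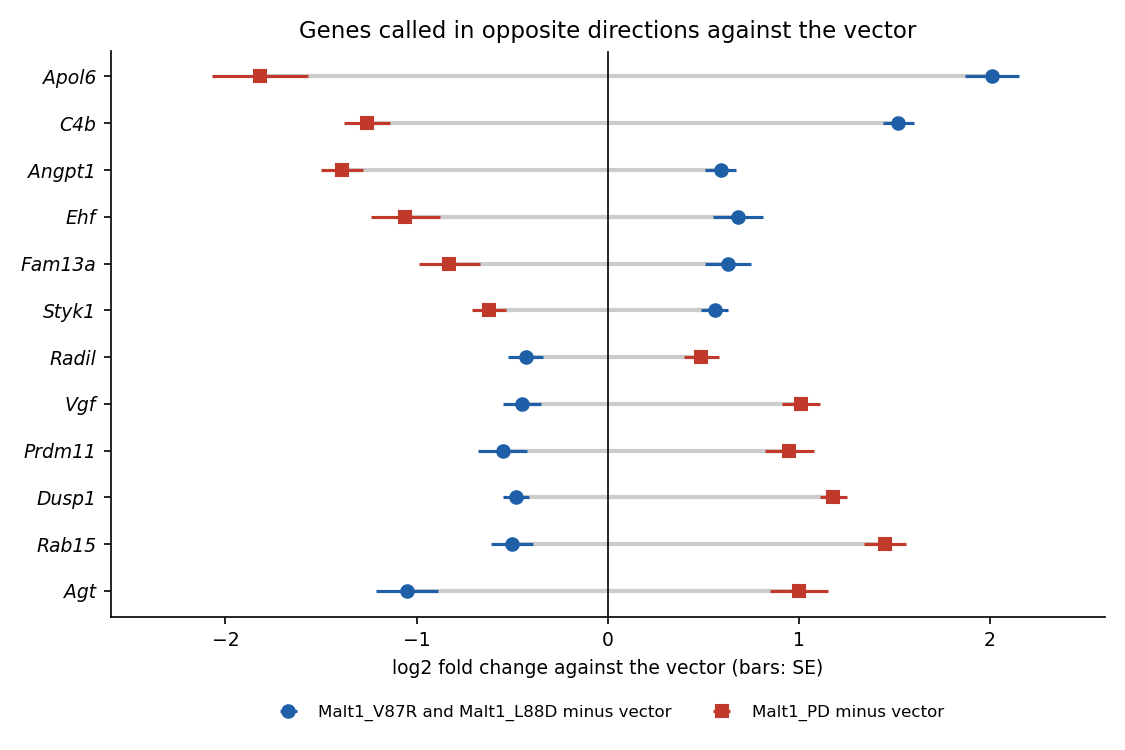
Log2 fold changes against the vector (x, bars SE) for the 12 genes named from those called in opposite directions (y), for Malt1_V87R and Malt1_L88D together (6 libraries, blue circles) and Malt1_PD (3 libraries, red squares), each against 3 vector libraries. Apol6 lies at 2.01 and -1.82, the widest gap of the 12, and Agt at -1.05 and 1.00.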

How the data were processed

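Total RNA of E0771 cells was sequenced in 15 libraries, 3 for each of 5 groups, as directional paired reads of 150 bp, per the labels' protocols. The authors deposited raw counts per gene symbol in 1 table. Reads were trimmed with Trim Galore 0.6.0, aligned with STAR 2.7.3a and counted with featureCounts 1.6.3 on GRCm38.p6, per the submitters' processing notes. Which annotation release, strand option and treatment of multiply matching reads were used is not stated there, so overlapping, antisense and near-identical genes may share reads. Library totals were 15471746 to 21458457 counts. Columns named for C461A were taken as Malt1_PD, the remaining construct label. Gene IDs and positions came from the GENCODE M21 annotation, in which 55233 of 55571 symbols matched 1 gene.

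All 15 libraries were fitted together in edgeR 4.0.16 (R 4.3.3; limma 3.58.1) with TMM scaling, filterByExpr, robust quasi-likelihood tests and Benjamini-Hochberg adjustment over 14571 genes. The mean of Malt1_V87R and Malt1_L88D was contrasted with Malt1_PD, and each with the vector. In simulated counts for 14239 genes, 50 genes were changed at each of 4 sizes, and all others had the same mean in every group. The comparison with Malt1_PD recovered 52% of 1.25-fold, 72% of 1.5-fold, 88% of 2-fold and 98% of 4-fold changes. Of 169 calls 14 were false (8.28%). In the real comparison 46.3% of genes were called, far more than were changed here, so these rates may not hold for it. Alternatives were RLE and upper-quartile scaling, DESeq2 1.42.0, limma-voom, other filters, fewer libraries and a block on replicate number. The constructs and gene lists were chosen with earlier results of these data known.

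Named genes were the 8 largest in each direction among genes called for both mutants, without overlap and with at least 5 CPM, the 6 of each opposite direction with the largest smaller change among genes with a given symbol and the same minimum, and from each list the 4 or fewer called members that ranked first by adjusted p. Further list members, such as exceptions in direction, were chosen after their values were seen. Some list members that the rule names are not reported here.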

Additional observations from a re-analysis of the deposited data

Results flagged for a closer look

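Of 28 named genes, 2 had 1 of the 6 mutant libraries far from the rest, where its gap to the nearest library divided by the whole range exceeded Dixon's critical ratio for 6 values. Chance flags about 1 in 20 such groups. Ccl3, the macrophage chemokine, was at 4.67 CPM in Malt1_L88D replicate 2, against 6.47 to 7.35 CPM in the other 5 libraries (ratio 0.672). Il11, a cytokine of the interleukin 6 family, was at 0.884 CPM in Malt1_V87R replicate 2, against 1.66 to 1.84 CPM in the others (ratio 0.809). The outlying library was the lowest for both, and all 6 libraries were below every Malt1_PD library.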

How the results depend on the processing

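Genes called between the mutants and Malt1_PD numbered 6339 with DESeq2, 6605 without a filter on low counts and 5850 to 6670 with 1 library of the mutants or Malt1_PD left out, and the higher share was 45.9% to 52.5% over all settings. Of 504 values of named genes under the alternatives, 499 kept their direction and side of the threshold, 0 reversed, and 5 brought Malt1 past it, with adjusted p from 0.0175 to 0.0421. Of 492 called list members, 446 did not lose their call in any of the 18 settings that tested them, and 0 turned. A member that a setting did not test counts as not lost there. The numbers of genes called in opposite directions against the vector, 122 (mutants higher) and 114 (mutants lower), moved most: they were 67 and 44 with each mutant required to pass, 75 and 73 without Malt1_L88D replicates 2 and 3 (a setting chosen after seeing the data), and 70 to 165 and 49 to 156 with 1 library left out. The lowest were without vector replicate 3. The highest, 165 and 156, were without Malt1_PD replicate 2. Why the counts moved was not tested. Between Malt1_V87R and Malt1_L88D, 5 genes were called without a filter (Ctss, Apoe, Nos2, Gm10095 and Csf1r) and 2 without Malt1_L88D replicate 1 (Apoe and Csf1r).

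The replicate block gave 7055 calls between the mutants and Malt1_PD, and 164 and 152 opposite genes. Same-numbered libraries correlated at -0.14 to 0.589 over 9147 genes, with 5 of 18 pairs over 0.1, so the numbers were not taken to pair the samples. Counts limit the precision of genes near or below 1 CPM, such as Ccl11 and Il1b, where a library held few reads. Il1b was at 0.184 to 0.279 CPM in every vector and mutant library, where 3 counts equal 0.139 to 0.189 CPM. A small rise of Il1b in the mutants could therefore have been missed.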

Other observations

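Genes outside the lists described above were looked at after their values were seen. Complement genes differed in both directions. C3, the central component, was at 1347 ± 55.3 CPM (SD, n = 3) in Malt1_PD and 449.6 ± 12.7 CPM (n = 6) in the mutants, close to 456 CPM with the vector (edgeR adjusted p = 0.722). C1s1, a protease of the first component, was instead at 185 CPM in the mutants, 83.2 CPM in Malt1_PD and 98.8 CPM with the vector, and was among the genes called in opposite directions. Its partner C1ra (0.61 ± 0.04 on the log2 scale) and C2 (0.73 ± 0.12) were also higher in the mutants than in Malt1_PD. Serping1, the inhibitor of the C1 proteases, was lower (-0.93 ± 0.10).

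Mpeg1, a pore-forming protein also expressed by macrophages, was higher in the mutants, at 27.8 ± 1.41 CPM in the mutants, 3.94 CPM in Malt1_PD and 5.17 CPM with the vector. The surface antigen genes Ly6a and Ly6c1 were called in opposite directions against the vector: Ly6a was at 472 CPM in the mutants, 189 CPM in Malt1_PD and 321 CPM with the vector, and Ly6c1 at 112, at 35.8 and at 81.1 CPM. Plat, tissue plasminogen activator, and Procr, the endothelial protein C receptor, were both lower in the mutants (41.03 against 214 CPM, and 24.9 against 151 CPM), as was the urokinase gene Plau.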
